A study of Mus musculus with 4 samples.

Results

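A set of 10 imprinted genes was followed through single endothelial cells (EC) of the mouse aorta: *Igf2*, *H19*, *Kcnq1ot1*, *Cdkn1c*, *Igf2r*, *Grb10*, *Plagl1*, *Meg3*, *Peg3* and *Ndn*. All 10 are among the 18767 genes of the deposited table. They were chosen by name with their measured levels in these cells in view, so level, co-detection and distribution over cells and libraries are a description with no test. The study had 4 libraries of cells sorted from aortas as CD31+ CD45- TO-PRO-3-, 2 labelled Jag1 ECKO and 2 labelled Jag1 ECWT. Both groups were Jag1 fl/fl mice on a C57BL/6J background that received tamoxifen. Jag1 ECKO mice carried in addition a tamoxifen-induced Cre under the Cdh5 promoter, which is active in endothelium, and controls lacked it. The mice were young adult males by the study's methods. The labels do not give how many mice stood behind a library, so the spread between libraries may be technical in part. Of 991 deposited cells, 824 had more than 1200 genes. Of these, 794 fell in 13 clusters in which EC markers outweighed those of fibroblasts and of vascular smooth muscle cells (VSMC), and 30 cells of 1 cluster led by *Myl9*, *Lum* and *Myh11* were fibroblast/VSMC-like.

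Imprinted genes are expressed from the copy inherited from 1 parent, a choice set by DNA methylation that differs between egg and sperm at imprinting control regions. Many of them regulate growth of the embryo and placenta, and several sit together in clusters that also hold long noncoding RNAs. In mice *Igf2*, *Kcnq1ot1*, *Peg3*, *Ndn* and *Plagl1* are expressed mainly from the paternal copy, and *H19*, *Meg3*, *Cdkn1c*, *Igf2r* and, outside the brain, *Grb10* from the maternal copy. The parental origin of a transcript could not be read here, because the mice were inbred and the table holds counts per gene.

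*H19*, *Igf2*, *Kcnq1ot1* and *Cdkn1c* lie on mouse chromosome 7 (GRCm38, GENCODE), with 880.2 kb between *H19* and *Cdkn1c*. *H19* (ENSMUSG00000000031) occupies chr7:142575529-142578143 on the minus strand, and *Igf2* (ENSMUSG00000048583) lies 72.6 kb away at chr7:142650766-142666816. *Kcnq1ot1* (ENSMUSG00000101609) is transcribed from the minus strand at chr7:143203458-143296549, entirely within *Kcnq1* on the plus strand, and *Cdkn1c* (ENSMUSG00000037664) lies 161.8 kb from it at chr7:143458339-143461050. *Igf2r* on chromosome 17 overlaps *Airn*, a noncoding RNA of the opposite strand, over 28354 bases. The sources used here do not say whether counting used strand, so reads of *Kcnq1ot1* and *Kcnq1*, or of *Igf2r* and *Airn*, may not be told apart in the shared stretches.

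*Jag1* went against the labels: summed over EC it was 164 and 72.6 CPM (counts scaled to an equal library total of 1e6) in the libraries labelled Jag1 ECKO 1 and 2, and 30.8 and 26.4 CPM in those labelled Jag1 ECWT 1 and 2. Group names below are those of the labels. If labels had been exchanged, every difference between them given here would turn its sign, which was not tested. The tag lies at the 3′ end of the transcript, and whether it falls in the deleted part is not given. Library Jag1 ECKO 1 stood apart. Of 1576 genes with a mean of at least 100 CPM, it held 28 at less than 1/3 of their level in each other library, whereas the other libraries held 0 or 1 such gene. Genes induced by tissue dissociation, 15 in the list, summed to 2761 CPM in it and to between 1322 and 1473 CPM in the others. The 794 EC were 194, 224, 137 and 239 cells in Jag1 ECKO 1, Jag1 ECKO 2, Jag1 ECWT 1 and Jag1 ECWT 2, with a median over all kept cells of a library of 4212 to 6518 counts. The 10 EC markers summed to between 9681 and 11720 CPM, 8 fibroblast markers to between 863 and 1411 CPM, 8 VSMC markers to between 389 and 660 CPM, and the 3 leukocyte markers listed in the table to at most 3.05 CPM. Lymphatic markers (4 in the table) summed to 36.8 to 80.6 CPM, pericyte markers (5) to 75.7 to 84.2 CPM, mesothelial markers (2) to at most 4.74 CPM and erythroid markers (3) to at most 1.39 CPM. Their part in the results was not tested. Of 373 well barcodes, 324 occurred in 2 or more libraries, and one barcode set serves every plate in this method.

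*Kcnq1ot1* was present in every one of the 794 EC and exceeded the other 9 genes together by far. It held 96.1% of the counts of the 10 genes, which came to 2.08% of all EC counts, and 1 gene of the table had a higher sum. The other 9 together made up 0.0822% of counts. CEL-Seq2-based libraries are meant to give 1 tag per molecule at its 3′ end, so levels were compared between genes without division by length. For *Kcnq1ot1*, which has runs of A inside its transcript and shares sequence with other genes, this was not tested and its level is uncertain. *Igf2*, a secreted growth factor, followed at 234 ± 68.2 CPM (SD, n = 4 libraries), and *Meg3*, the noncoding RNA of the Dlk1 domain, at 213 ± 43.1 CPM. *Igf2r*, the receptor that carries IGF2 to lysosomes, reached 112 ± 10.8 CPM. The next 4 were *Grb10*, an adaptor that dampens insulin and IGF receptor signals (79.0 ± 18.9 CPM), *Ndn*, a growth suppressor of the MAGE family (65.4 ± 7.75 CPM), *Cdkn1c*, the cell cycle inhibitor p57 (64.5 ± 14.6 CPM), and *Plagl1*, a zinc finger transcription factor (53.1 ± 18.3 CPM). *H19*, the noncoding RNA paired with *Igf2*, and *Peg3*, a zinc finger protein, were lowest at 13.6 ± 21.4 and 12.9 ± 0.251 CPM. By the range over libraries, *Kcnq1ot1* lay above *Igf2*, *Meg3* above *Igf2r*, *Igf2r* narrowly above *Grb10*, and *Plagl1* above *Peg3*. The pair *Igf2* and *Meg3*, the 4 genes from *Grb10* to *Plagl1*, and the pair *H19* and *Peg3* overlapped within themselves. *H19* also overlapped *Plagl1*, at 45.1 against 36.8 CPM in Jag1 ECWT 1. The median gene of the table stood at 8.01 CPM and was seen in 4.28% of EC, so 9 of the 10, all but *H19*, were detected in more cells than the median gene.

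**Figure D1:**
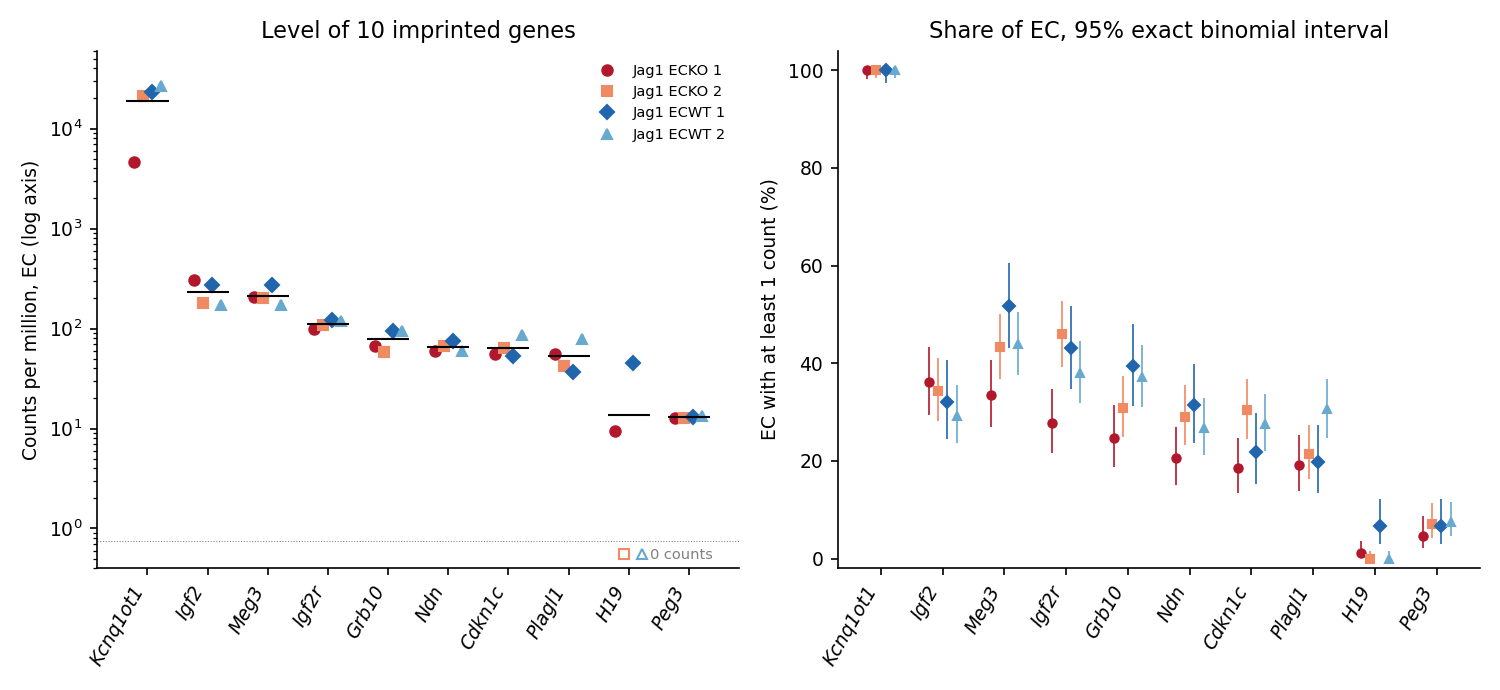
Left, CPM summed over EC in each library on a log axis, with a black line at the mean of 4 libraries and open symbols for 0 counts. Right, percent of EC with at least 1 count, with 95% exact binomial intervals. *Kcnq1ot1* is near the top in every library except Jag1 ECKO 1 at 4678 CPM, and *H19* has counts in 2 of 4 libraries.

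The *Igf2* and *H19* pair was uneven in its own way. *Igf2* gave 309 CPM in Jag1 ECKO 1, 182 CPM in Jag1 ECKO 2, 274 CPM in Jag1 ECWT 1 and 170 CPM in Jag1 ECWT 2, so each label had 1 higher and 1 lower library and the groups overlapped. It was found in 36.1%, 34.4%, 32.1% and 29.3% of EC in the same order, shares that are not at equal depth. At 2500 counts per cell the shares were 27.1%, 21.2%, 20.9% and 20%, and the mean counts 0.70, 0.51, 0.70 and 0.50. Of 261 EC with *Igf2*, 112 had a single count and 25 had 10 or more, up to 55, and those 25 cells held 46.0% of its counts. Without them its level was 169, 93.9, 140 and 117 CPM in the same library order, so libraries still differed in level. The 80 EC with most *Igf2* held 74.0% of counts, against 49.6% for *Igf2r*, 54.9% for *Meg3* and 63.1% for *Cdkn1c*. For *H19* and *Peg3*, which had few counts, it was 100%. With each cell thinned to 2500 counts, the variance of *Igf2* over EC was 6.05 times its mean, and the median of 549 genes with a mean within 1.5 times of it was 1.23. For *Meg3* the same ratio was 2.65, and for *Igf2r*, *Ndn*, *Grb10* and *Plagl1* it lay between 1.17 and 1.29, close to the medians of 1.15 to 1.18 for genes of like mean. *Cdkn1c* and *Peg3* were at 1.54 and 1.72, where genes of like mean had medians of 1.16 and 1.11. *H19*, on few counts, was at 17.9 against 1.10, and the abundant *Kcnq1ot1* was at 32.55.

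*H19* counts were few. There were 9 in 194 EC of Jag1 ECKO 1 and 38 in 137 EC of Jag1 ECWT 1. No EC held a count in the other library of either label, 0 of 224 EC in Jag1 ECKO 2 and 0 of 239 EC in Jag1 ECWT 2, which allows shares of EC with a count of up to 1.34% and 1.26% (limit of 3 counts). Cells that make *H19* RNA without yielding a count are not limited by this. One EC of Jag1 ECWT 1 had 29 of the 47 counts and 1 of Jag1 ECKO 1 had 8, and both lay in the cluster led by *Vcan*. These same cells had 45 and 29 counts of *Igf2*. The remaining 9 positive cells had 1 or 2 counts of *H19*. Thinned to equal depth, shares with *H19* were 1.11% in Jag1 ECKO 1 and 1.55% in Jag1 ECWT 1, from 2 cells each.

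Both RNAs were seen together in 6 of the 11 EC with *H19*, where 3.61 were expected from the shares in each library, a ratio of 1.66. The count was 5 against 2.89 expected in Jag1 ECWT 1 and 1 against 0.722 in Jag1 ECKO 1. Co-detection thus rests mostly on Jag1 ECWT 1, and without that library the ratio was 1.39 on 1 cell. In the libraries that held *H19* counts, Jag1 ECKO 1 and Jag1 ECWT 1, 3 of the 11 EC with 10 or more counts of *Igf2* had *H19*. The remaining 14 such cells were in the libraries where no EC held a count of *H19*. Over all libraries 3 of the 25 EC with 10 or more counts of *Igf2* had *H19*. Where no EC held *H19*, the number expected is 0 as well, so those libraries do not enter the ratio.

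**Figure D2:**
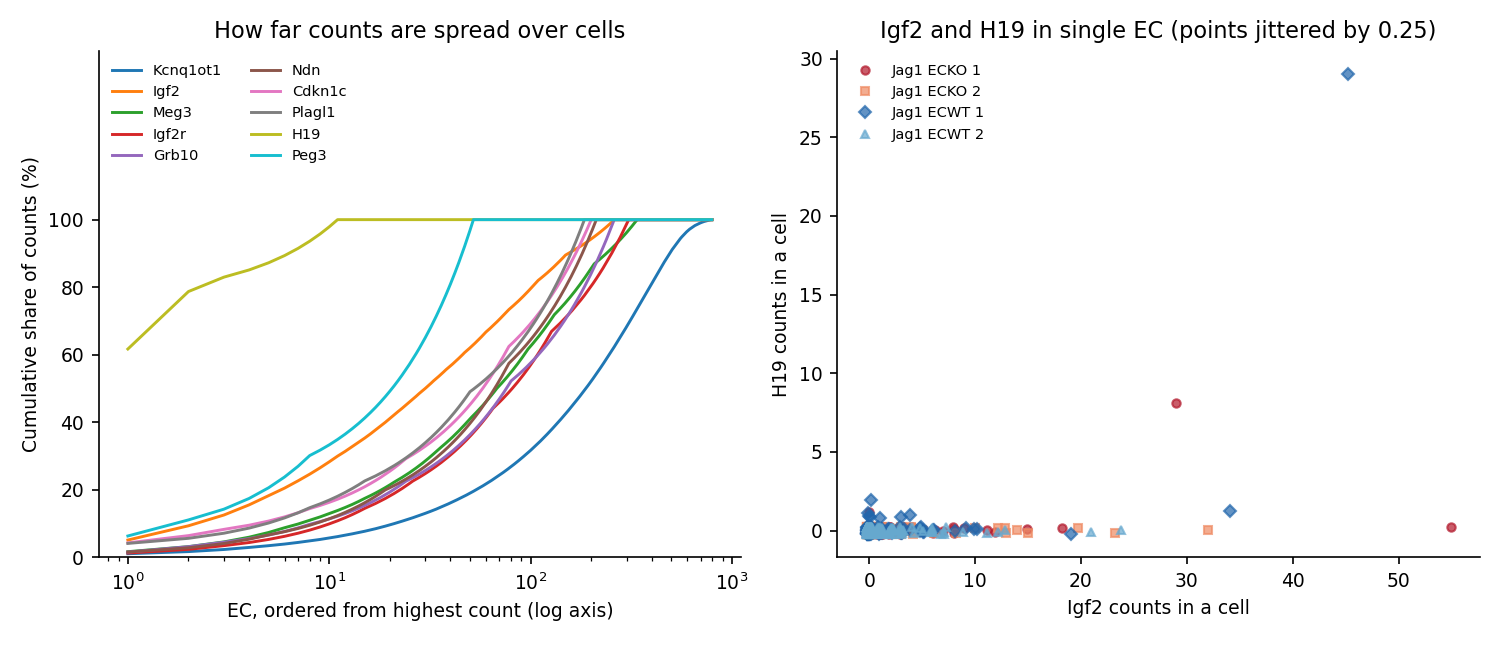
Left, cumulative share of each gene's counts over EC ordered from the highest count (log axis). Right, *Igf2* against *H19* counts per EC, colored by library. The curve of *Igf2* climbs earlier than those of *Igf2r* or *Meg3*, and 2 cells with 29 and 8 counts of *H19* stand apart at 45 and 29 counts of *Igf2*.

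Clusters of EC differed in *Igf2*. The cluster led by *Vcan*, *Nog* and *Slc6a6*, 94 cells or 11.8% of EC, held 43.4% of its counts, at 863 CPM and in 60.6% of cells. *Igf2* and *H19* were among the genes that defined this cluster, so the contrast with other EC is a description. Within libraries its *Igf2* level was 827, 609, 2051 and 825 CPM, against 233, 121, 157 and 88.4 CPM in the other EC of Jag1 ECKO 1, Jag1 ECKO 2, Jag1 ECWT 1 and Jag1 ECWT 2. It was higher in that cluster in 4 of 4 libraries, and 16 of the 25 EC with 10 or more counts were in it. The 17 cells of a cluster led by *Gpihbp1*, *Igfbp3* and *Cd36* had 1156 CPM in 35.3% of cells, but 1 cell of Jag1 ECKO 1 held 55 of its 80 counts. In Jag1 ECWT 1, which gave 8 of these cells, the level was 35.3 CPM against 282 CPM in the other EC. A cluster led by *Lrg1*, *Fabp4* and *Pde2a* had 45.2 CPM in 6.25%. In the 30 fibroblast/VSMC-like cells *Igf2* gave 4 counts, or 14.5 CPM, less than the 38.1 CPM of the lowest EC cluster. By share the order differed, with a count in 13.3% of these cells, above the 6.25% of the *Lrg1*-led cluster. *H19* was in 0 of these 30 cells, which allows a share of up to 10%.

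*Meg3* was arranged differently. It was found in 67% of cells in the cluster led by *Nkx2-3*, *Pla2g5* and *Pcolce2*, in 24.5% of the *Vcan*-led cluster and in 9.38% of the *Lrg1*-led cluster. These shares are not at equal depth, and cells of the *Nkx2-3*-led cluster had a median of 7663 counts against 5156 in the *Vcan*-led cluster. By level the *Nkx2-3*-led cluster was not the highest, at 257 CPM against 412 CPM in the cluster led by *Galnt18*, *Aqp1* and *Ret*. The *Vcan*-led and *Lrg1*-led clusters were at 85.7 and 16.9 CPM. In the *Vcan*-led cluster the level of *Meg3* was below that of the other EC in each of the 4 libraries, at 99.2 against 220, 54.0 against 224, 230 against 276 and 68.8 against 183 CPM in the library order above. *Meg3* too was among the genes that defined the clusters, so its contrasts between them are a description. Pooled over libraries, *Grb10* and *Plagl1* were found in 52.3% and 38.6% of the 88 cells led by *Sfrp2*, *Thbs1* and *Gdf6*, 55 of them from Jag1 ECWT 2. Within libraries the share with *Grb10* was 33.3%, 63.6%, 61.5% and 50.9% there and 24.3%, 29.1%, 37.1% and 33.2% in the other EC, higher in 4 of 4. *Plagl1* was in 44.4%, 27.3%, 30.8% and 41.8% of these cells and in 17.8%, 21.1%, 18.5% and 27.2% of the other EC, yet in Jag1 ECKO 2 and Jag1 ECWT 1 it was more frequent in the cluster led by *Cxcl1* and *Dcdc2a*, at 46.9% and 35.7%. *Plagl1* reached 44.8% in the 29 cells led by *Nr4a1*, *Junb* and *Egr1*, all from Jag1 ECKO 1. In the 31 cells led by *Coch*, 21 of them from Jag1 ECKO 2, *Ndn* and *Igf2r* were found in 48.4% and 61.3%. These cells were deep, with a median of 7708 counts. By level *Igf2r* was at 114 CPM in them and 112 CPM over all EC, and *Ndn* at 99.3 and 64.7 CPM. For *Ndn* the share was 47.6% against 27.1% of other EC in Jag1 ECKO 2 and 60% against 26.1% in Jag1 ECWT 2, which gave 5 of these cells. *Igf2r* went both ways, with 71.4% against 43.3% in Jag1 ECKO 2 and 20% against 38.5% in Jag1 ECWT 2. *Ndn*, *Plagl1* and *Peg3* were each in 0 of the 17 cells of the *Gpihbp1*-led cluster, which allows a share of up to 17.6%.

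**Figure D3:**
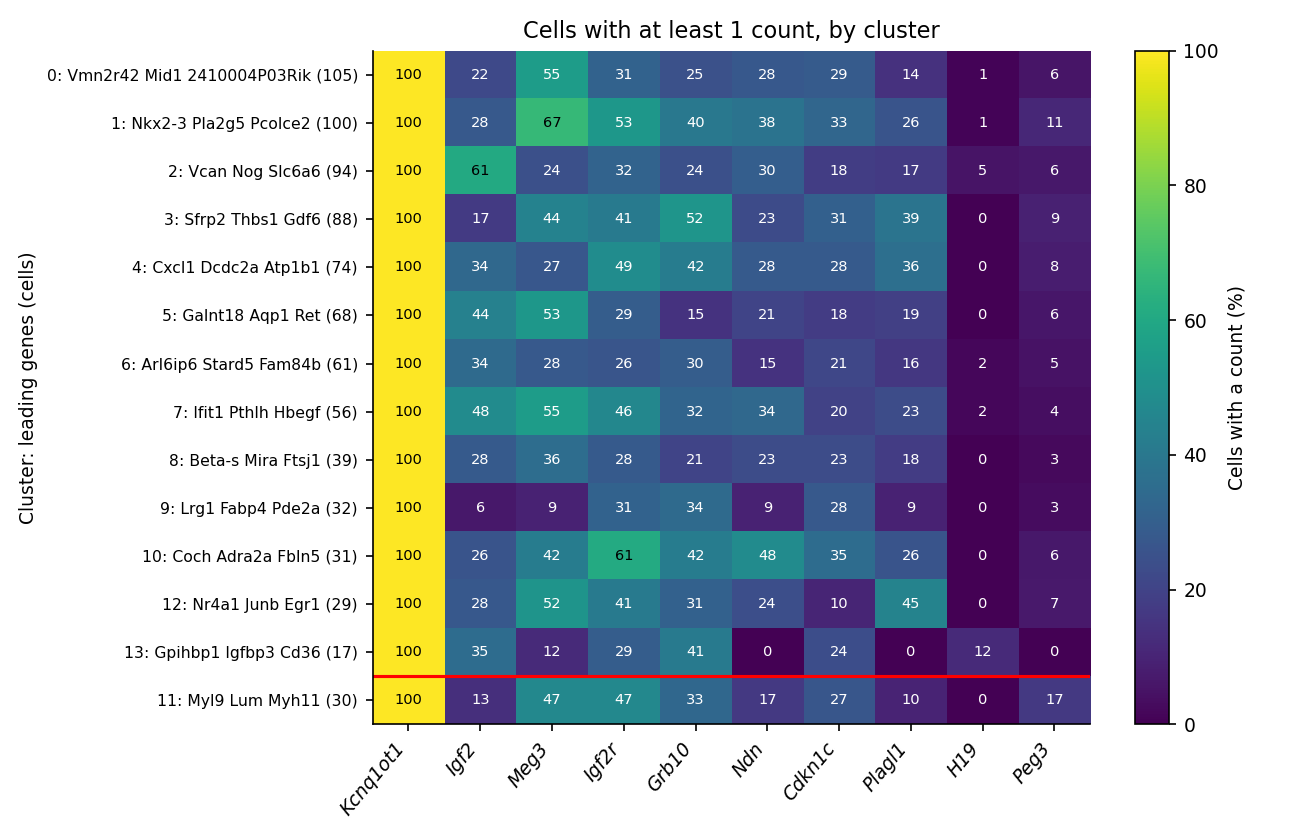
Percent of cells with at least 1 count of each gene in the 13 EC clusters (above the red line) and in the fibroblast/VSMC-like cluster (below it), with the number of cells in brackets. *Igf2* peaks at 61 in the *Vcan*-led cluster and *Meg3* at 67 in the *Nkx2-3*-led cluster, while *Kcnq1ot1* is at 100 in all.

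*Kcnq1ot1* is an antisense RNA that, when transcribed from the paternal copy, silences neighbors in its domain, *Cdkn1c* among them. Its level was 4678 CPM in Jag1 ECKO 1, 21371 CPM in Jag1 ECKO 2, 23327 CPM in Jag1 ECWT 1 and 26495 CPM in Jag1 ECWT 2. The first library therefore held 19.7% of the mean of the others. None of the other members behaved so in that library, which held between 63.1% and 148% of the mean of the others for the other 9 genes. The same gap was present cell by cell. *Kcnq1ot1* took a median of 0.363% of the counts of an EC in Jag1 ECKO 1 and of 2.26%, 2.34% and 2.55% in the remaining libraries, and the 95th percentile of the first lay below the 25th percentile of each of the others (1.47% to 1.77%). At its highest it took 13.2% of the counts of 1 cell. Its share fell with the total count of a cell, with a Pearson r against log total count of -0.14, -0.31, -0.33 and -0.26 within the libraries (194, 224, 137 and 239 cells).

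*Cdkn1c* showed no such gap. It gave 55.8, 63.5, 53.4 and 85.5 CPM in the library order above and was found in 18.6%, 30.4%, 21.9% and 27.6% of EC. At equal depth those shares were 12.7%, 14%, 10.1% and 15.2%. Because *Kcnq1ot1* was in all EC, the 200 EC with *Cdkn1c* all had it, which is the number expected, and co-detection carries no information. The correlation of their log-normalized levels over cells was -0.06, -0.04, 0.05 and 0.01 within libraries, and *Kcnq1ot1* ranked 5316 of 8937 genes by likeness to *Cdkn1c*. *Kcnq1*, the host gene of *Kcnq1ot1*, had 74 counts in EC at 14.2 to 16.0 CPM, and the low *Kcnq1ot1* level of Jag1 ECKO 1 was not seen in it. *Airn*, the antisense RNA at *Igf2r*, was at 13.7 CPM in Jag1 ECKO 1 and between 30.8 and 40.3 CPM in the others.

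Likeness was measured as the mean over libraries of the within-library Pearson r of log-normalized levels across EC, among 8938 genes found in at least 5% of EC. The 3 genes most like *Kcnq1ot1* were *Gm17821* (mean r = 0.92), *A630089N07Rik* (0.86) and *Grk4* (0.81). No other member came near this. The highest r of the remaining 8 members was 0.31, of *Igf2* with *Stmn2*. Like *Kcnq1ot1*, *Gm17821* was low in Jag1 ECKO 1, with 2885 CPM there and 10756, 12367 and 14568 CPM in the others. All 10 genes most like *Kcnq1ot1* stood in Jag1 ECKO 1 at 14.2% to 26.5% of their mean in the other libraries. These correlations were taken within libraries over cells of unequal depth. Of these 10 genes the 9 with a GENCODE position lie outside the domain of *Kcnq1ot1*.

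Sequence was examined for what these RNAs share, since tags are primed from runs of A. The longest *Kcnq1ot1* transcript of GENCODE is a single exon of 93092 bases with 30 runs of 8 or more A, 8 of them of 12 or more. Per length this was 3.22 runs of 8 or more A in 10 kb, fewer than the 4.81 of *Meg3* and 3.45 of *Peg3*. Among the 17545 genes of the table with a transcript, 10.7% had a run of 12 or more A. *Meg3* had 3 such runs and *Peg3* had 1, while *Igf2*, *H19*, *Cdkn1c*, *Ndn*, *Grb10*, *Igf2r* and *Plagl1* had none. The 2 longest runs of *Kcnq1ot1*, 41 and 23 A, are shown with 30 bases on each side, read along the transcript (chr7:143226915-143227015 and chr7:143222746-143222828, minus strand) and with the run in capitals.
Kcnq1ot1, run of 41: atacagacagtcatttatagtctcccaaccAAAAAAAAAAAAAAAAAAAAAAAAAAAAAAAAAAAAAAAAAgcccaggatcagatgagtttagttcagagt
Kcnq1ot1, run of 23: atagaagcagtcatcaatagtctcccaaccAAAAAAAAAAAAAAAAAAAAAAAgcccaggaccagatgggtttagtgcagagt
The 60 flanking bases of these runs, 4187 bases apart, were equal at 52 positions, so the same unit recurs within the transcript.

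Parts of *Kcnq1ot1* recur in other RNAs too. By blastn on the sense strand, 5 of the 9 genes most like it that have a GENCODE transcript aligned to it over at least 100 bases at 80% identity or more (55.6%), and 874 of 8475 genes found in 5% of EC did so (10.3%). *A630089N07Rik* aligned over 1796 bases at 82.5% identity, *A130077B15Rik* over 1722 bases at 82.3% and *Pot1b* over 813 bases at 84.6%. *Gm17821*, the gene most like it, had no alignment. The best stretch of the noncoding *A130077B15Rik*, which ran for 383 bases at 90.9% identity, is shown by its first 90 positions beside its match in *Kcnq1ot1* (chr7:143206242-143206331, minus strand), with the bases that differ in capitals.
Kcnq1ot1: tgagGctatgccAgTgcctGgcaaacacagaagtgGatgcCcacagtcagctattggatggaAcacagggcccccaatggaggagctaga
A130077B15Rik: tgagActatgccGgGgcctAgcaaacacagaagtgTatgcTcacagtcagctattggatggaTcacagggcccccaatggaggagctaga
They differ at 7 of 90 positions. Where in the transcript the tags of *Kcnq1ot1* fell was not analysed here, and counting could have split reads among such copies, so its level is uncertain. The part of A-rich priming sites, or of shared sequence, in the level or in the gap between libraries was not tested.

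**Figure D4:**
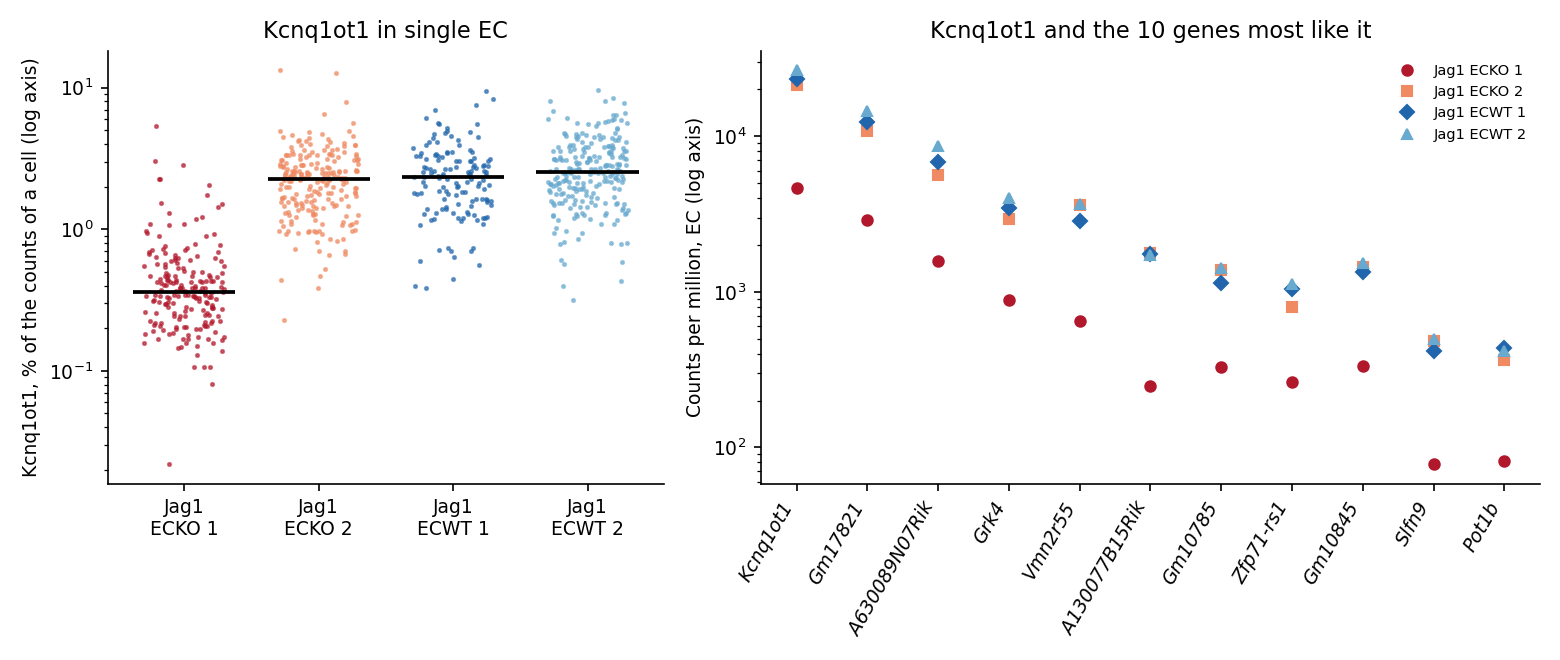
Left, *Kcnq1ot1* as percent of the counts of each EC on a log axis, with a black line at the library median. Right, CPM of *Kcnq1ot1* and of the 10 genes most like it, on a log axis. Jag1 ECKO 1 lies lowest in both panels, at a median of 0.363% against 2.26% to 2.55%, and below the other libraries for all 11 genes.

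Among the other members likeness was weak. The gene most like *Meg3* was *Rian* (mean r = 0.19, positive in 4 of 4 libraries), a noncoding RNA whose gene lies 32.2 kb from *Meg3* in the same imprinted domain. *Grb10* was most like *Emcn*, an endothelial sialomucin (0.21), and *Plagl1* most like *Tm4sf1* (0.16). *Igf2* and *Grb10*, which act in opposite directions on growth, stood low in each other's order, with *Grb10* ranked 8802 of 8937 by likeness to *Igf2* (mean r = -0.09, negative in 4 of 4 libraries). Among pairs of members the highest mean r was 0.10, of *Cdkn1c* with *Plagl1*, which encodes a transcription factor known to activate imprinted genes. In sparse counts correlations of this size are no finding.

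Detection of the members in the same cells was close to what their separate shares give. Over 28 pairs without *H19* and *Kcnq1ot1*, observed EC with both genes were 0.888 to 1.37 times those expected within libraries, with a median of 1.08, and 23 pairs were above 1. Deep cells have more of every gene, and with all EC thinned to 2500 counts the median was 1.02 and 16 of 28 pairs were above 1. At that depth the ratios ran from 0.586, for *Peg3* with *Grb10* on 2 EC, to 1.38, for *Peg3* with *Plagl1* on 4 EC. *Igf2* with *Grb10* fell from 0.912 to 0.621, with 16 EC observed and 25.8 expected. *Igf2* with *Plagl1* fell likewise, from 1.00 to 0.644, with 13 EC observed and 20.2 expected. An EC had a mean of 1.86 of the 9 members other than *Kcnq1ot1* in Jag1 ECKO 1 and of 2.41 to 2.53 in the other libraries. At equal depth those means were 1.30 in Jag1 ECKO 1 and 1.26 to 1.47 in the others, so the gap was not present once depth was equal.

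For the members between labels, sums over EC were tested with edgeR (quasi-likelihood), with the library as replicate. Their distribution over libraries was known when they were chosen, so these values support nothing by themselves. None of the 10 passed an adjusted p of 0.05, among 9485 genes tested of which 0 passed (0%), with 416 genes at an unadjusted p below 0.05. DESeq2 called 1 gene, which was not a member. The smallest p that an exact permutation test of 2 against 2 libraries allows is 0.333. The member with the smallest unadjusted p was *Grb10*, which gave 67.4 and 58.6 CPM in the libraries labelled Jag1 ECKO and 94.9 and 95.2 CPM in those labelled Jag1 ECWT. The groups did not overlap, and its log2 difference was -0.58 ± 0.20 (SE; edgeR adjusted p = 0.921), between -0.75 and -0.52 under all alternatives. The range of adjusted p over those alternatives was 0.225 to 1.

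Of the 10 members, 4 had no overlap between labels in CPM, which held for 34.5% of all genes tested. Besides *Grb10* these were *Kcnq1ot1*, *Igf2r* and *Peg3*. *Igf2r* had 98.0 and 108 CPM under Jag1 ECKO and 121 and 120 CPM under Jag1 ECWT, a log2 difference of -0.19 ± 0.20 (SE). *Peg3*, at 11 to 21 counts per library, differed in CPM by less than its counting error. For *Kcnq1ot1* the log2 difference was -0.88 ± 0.56 (edgeR adjusted p = 0.921), and it rested on 1 library. Without Jag1 ECKO 1 it was -0.14, and without Jag1 ECKO 2 it was -2.45. Without any low-count filter it was -0.86 and passed, at an edgeR adjusted p of 1.82e-04. The SE of that fit was 0.17, against 0.56 in the main test, while the libraries labelled Jag1 ECKO stood at 4678 and 21371 CPM. That p therefore does not measure the spread between libraries. *Igf2* differed by 0.16 with a 95% interval of -0.45 to 0.77, *Meg3* by -0.08 (-0.58 to 0.42), *Cdkn1c* by -0.22 (-0.85 to 0.42) and *Ndn* by -0.04 (-0.56 to 0.48) on the log2 scale. These intervals reach 0.42 or farther in either direction, so no difference was shown, and none was shown to be absent. The median log2 difference was -0.21 over the 10 members and 0.00 over all genes tested.

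Other imprinted genes were read from a list of 73, of which 61 are in the table and 27 were found in at least 5% of EC. The 8 with the highest mean level were *Gnas*, which encodes a G protein subunit (2300 ± 156 CPM), *Cd81* (697 ± 99.8), *Dcn* (502 ± 128), *Ctsd* (253 ± 18.4), *Phactr2* (167 ± 20.2), *Pon2* (159 ± 3.23), *H13* (155 ± 18.6) and *Peg13* (108 ± 10.7; mean CPM ± SD, n = 4). Several of these are imprinted only in some tissues. *Dcn* encodes decorin, a matrix proteoglycan of fibroblasts, and was at 7551 CPM in the 30 fibroblast/VSMC-like cells. The median of the 61 was 5.10 CPM. *Dlk1*, the paternally expressed protein gene in the domain of *Meg3*, had 5 counts in all EC, at 0, 0.610, 4.74 and 0 CPM in the library order above, too few to compare labels. Of 30 list genes tested, 0 passed an edgeR adjusted p of 0.05 in either direction, 0 were at an unadjusted p below 0.05, and the median log2 difference was 0.09.

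The IGF axis in these cells held receptor and binding proteins more than further ligand. *Igfbp7* (378 ± 141 CPM), *Igfbp4* (197 ± 26.4), *Igf1r* (184 ± 17.7) and *Igfbp5* (103 ± 101) had the highest means of 13 genes, and *Igf1*, the other ligand, was at 6.70 ± 1.47 CPM. *Igf1r*, the signaling receptor for IGF2, was found in 51.1% of EC and *Igfbp5* in 10.45%. In the 30 fibroblast/VSMC-like cells *Igfbp7* and *Igfbp5* were higher, at 3580.5 and 871 CPM. There *Igfbp4* and *Igf1r* were at 228 and 217 CPM. Over all 9485 genes tested, 0 passed an edgeR adjusted p of 0.05 and 416 were at an unadjusted p below 0.05. Of the 7 IGF axis genes tested, 0 passed and 2 were at an unadjusted p below 0.05. One of these, *Igfbp5*, gave 81.1 and 248 CPM under Jag1 ECKO and 65.2 and 16.7 CPM under Jag1 ECWT. *Igfbp7*, the other, went in the opposite direction, with 358 and 186 CPM under Jag1 ECKO and 483 and 487 CPM under Jag1 ECWT (log2 difference -0.84 ± 0.26, SE; edgeR adjusted p = 0.921).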

How the data were processed

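Cells of mouse aorta were sorted as CD31+ CD45- TO-PRO-3- into plates and profiled by SORT-seq, a CEL-Seq2-based method with molecular identifiers (UMIs). Alignment by the authors used STAR and GRCm38. The deposited values are expected counts for each gene in each cell, that is UMIs corrected for chance repeats, not normalized. The counting tool and its use of strand are not given in the sources used here. Solving the correction for 4096 UMIs gave whole numbers to within 3.6e-12. The expected counts were rounded before tests.

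Cells with more than 1200 genes were kept, with total counts per library of 859280 to 1779042, and clustered with Seurat 5.3.0 (2000 variable genes, 12 principal components, lowest resolution giving 14 clusters). *Igf2*, *H19*, *Meg3* and *Cdkn1c* were among the variable genes. Clusters were called EC where summed EC markers exceeded those of fibroblasts and VSMC. Cells were not screened with a doublet caller. For equal depth each EC was thinned to 2500 counts, which left out 32 shallower EC (13, 2, 8 and 9 in the library order of the report).

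Sums over EC were tested with edgeR 4.0.16 (TMM, filterByExpr, quasi-likelihood, Benjamini-Hochberg over all genes) and DESeq2 1.42.0 as an alternative, in R 4.3.3. All 10 members passed the filter, *H19* only through the libraries that held it. The steps were tested on simulated data. Expected co-detection is the product of both shares within each library. Intervals on shares are exact Clopper-Pearson, and limits for 0 cells use 3 counts. Both cover counting error only. Alignments used blastn 2.17.0 on the longest GENCODE transcript of each gene.

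Members and gene lists were chosen with earlier results of these data known. Named genes are the 10 members, the 3 genes most like each, the highest 8 and 4 of the imprinted and IGF lists and any called. *Airn*, *Kcnq1*, *Dlk1*, *Igf1*, *Vcan*, *Cxcl1* and the genes ranked 4 to 10 by likeness to *Kcnq1ot1* were named after their values were seen.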

Additional observations from a re-analysis of the deposited data

Results flagged for a closer look

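The 167 deposited cells with 1200 genes or fewer entered no comparison, and members were found in them above the limit that 0 counts allows. The share of these cells with a count was 99.4% for *Kcnq1ot1*, 29.3% for *Meg3*, 19.2% for *Igf2*, 17.4% for *Igf2r*, 14.4% for *Cdkn1c*, 12% for *Grb10*, 10.2% for *Plagl1*, 5.39% for *Ndn* and 4.19% for *Peg3*. *Kcnq1ot1* stood at 27193 CPM in them and *H19* at 0 counts.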

How the results depend on the processing

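No paired analysis was possible because replicate numbers are missing from the labels, and the numbers 1 and 2 used here only name libraries in the order of the records. All settings were planned. The fit with no low-count filter tested 18355 genes, and its SE for *Kcnq1ot1* was 0.17 against 0.56 in the main test. Genes called were 0 in the main test, 1 with DESeq2, 67 with no low-count filter and 0 to 156 when 1 library was left out, highest without Jag1 ECKO 1 (156) and Jag1 ECKO 2 (143), and members called were 0, rising to 2 (*H19*, *Kcnq1ot1*) with no filter and lying between 0 and 1 when 1 library was left out. That 1 was *H19* without Jag1 ECKO 1, where a fold against a library at 0 counts depends on the prior count and is no bound, and *Kcnq1ot1* without Jag1 ECKO 2. Leaving out a library also left 1 group with a single library, assumed to vary like the others. Of 107 log2 differences of members, 13 changed sign, all of members with a main adjusted p of 0.947 or more (edgeR). *Peg3* became 0.12 in all cells above 1200 genes and 0.14 in EC above 1500 genes, *Ndn* 0.01 in EC above 1500 genes, and *Meg3* 0.18 in thinned EC. Without 1 library, *Igf2* ranged from -0.18 to 0.49, *Meg3* from -0.35 to 0.25, *Cdkn1c* from -0.52 to 0.24, *Peg3* from -0.097 to 0.043, *Ndn* from -0.18 to 0.10 and *Plagl1* from -0.70 to 0.47. *Igf2* with *H19* was co-detected at 3.13 times the expected number in thinned EC (3 cells) and at 3.13 with 2 or more counts (2 cells), and at 1.39 to 1.73 without 1 library. *Kcnq1ot1* with *Cdkn1c* gave 0.991 in thinned EC and 1.001 with 2 or more counts. Shares of EC moved by more than the spread between libraries in 18 of 90 settings, each by thinning or by asking for 2 counts. The cause of these changes was not tested. *H19* and *Peg3* rest on the fewest counts of the members, 47 and 63 in EC.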
